A study of Homo sapiens with 24 samples.

Results

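The genes described here are the best expressed ZNF genes of B-cell lymphoma cells under inhibition of BET proteins and the kinase SYK. They were chosen by name and level. Of 517 gene symbols that consist of ZNF, a number and at most 1 letter, the 300 with the highest mean over the 6 DMSO arrays were kept, and a symbol with several rows was represented by the row with the highest mean over all 24 arrays. The human Clariom D array, a whole-transcriptome microarray, was hybridized with RNA of 2 established lymphoma lines, SU-DHL-4 from a diffuse large B-cell lymphoma (DLBCL) and DG-75 from a Burkitt lymphoma. Each line was exposed for 72 h to DMSO as control, to 1 µM Entospletinib (Ento, an inhibitor of SYK), to 0.01 µM AZD5153 (AZD, a bivalent inhibitor of BET proteins) or to both at the same doses (Ento+AZD). Each of the 8 groups held 3 replicates, given as biological triplicates, and 1 line stood for each lymphoma type, so that line and lymphoma type cannot be told apart. The study asked how the combination changes expression compared with the single agents, and the lines could be compared as well.

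ZNF symbols are given to proteins with zinc fingers, small folds held by a zinc ion, of which the C2H2 type stands in tandem arrays and mostly reads DNA. Many carry a KRAB domain, which recruits TRIM28 (KAP1) and with it the histone methyltransferase SETDB1 and HP1 proteins, and thereby silences transposable elements and some imprinted loci. KRAB genes lie in tandem clusters, most of them on chromosome 19. Other ZNF proteins without KRAB activate promoters, belong to chromatin complexes or act on RNA. BET proteins bind acetylated histones at promoters and enhancers and support transcription, and SYK transmits the signal of the B-cell receptor.

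On the log2 scale of the arrays the B-cell marker CD79A lay between 11.2 and 12.4, CD79B between 8.84 and 10.7, PAX5 between 7.90 and 8.88 and MS4A1 between 6.22 and 11.8. 9 markers of T cells, monocytes, natural killer cells, fibroblasts, epithelium and erythrocytes lay between 1.24 and 6.17. The B-cell list as a whole overlapped with them in its range, and values of different probes are not amounts on 1 scale, so no gap between the lists is claimed. The array medians over all 25575 rows ranged from 4.89 to 5.14, and all arrays differed in their values. The array of AZD-treated SU-DHL-4 cells of replicate 1 had the lowest median, and its median over the 300 ZNF members was 6.21, against 6.43 to 6.85 on the other 23 arrays.

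The 300 members reached down to a DMSO mean of 5.56, a level that 43.6% of all rows held or exceeded. The highest DMSO means, which the rule used, belonged to ZNF207 with 10.71, ZNF254 with 9.62, ZNF107 with 9.60, ZNF800 with 9.18, ZNF675 with 9.11 and ZNF106 with 9.07. ZNF207 (BuGZ) binds BUB3 and microtubules of the mitotic spindle, and ZNF106 binds RNA. These values also depend on each gene's probes and are not amounts that can be set against each other. The last members inside were ZNF385C with 5.57, ZNF440 with 5.57 and ZNF691 with 5.56, and the first outside were ZNF286B with 5.55, ZNF226 with 5.55 and ZNF200 with 5.54. A ranking on the 18 treated arrays kept 293 of the 300.

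All 300 symbols matched RefSeq, which lists 297 as protein-coding genes and 3 as transcribed pseudogenes. Chromosome 19 held 140 of them (46.7%), chromosome 7 held 24, chromosome 16 held 17 and chromosome 1 held 14. The members lay close together. With at most 2 other protein-coding genes between neighbours, 147 members fell into 24 runs of 3 or more.

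RefSeq (GRCh38.p14) gave a promoter window, from 250 bases before to 50 bases after the transcription start, for 260 of the 300 members. Where several starts were listed, the first was taken. Of 12 sequences searched in these windows, the one whose share differed most from that in other genes, in percentage points, was the binding motif of ETS factors, CCGGAAG on either strand. It occurred in 44.6% of the 260 member promoters, in 32.1% of 159 promoters of the other ZNF symbols and in 14.2% of 15843 promoters of protein-coding genes. The CCAAT box, searched as CCAAT on both strands, occurred in 51.9% of member promoters and 36.4% of those of protein-coding genes, while the TATA box (TATAAA) occurred in 3.85% and 9.63%. The median GC content was 61.7% for members and 62.7% for protein-coding genes, and both had a median of 22 CG dinucleotides. The other sequences searched on both strands were the E-box CACGTG (6.15% of member promoters and 8.88% of those of protein-coding genes), the GC box GGGGCGG (43.8% and 41.6%), CRE TGACGTCA (4.23% and 2.59%), the NRF1 motif (2.69% and 1.75%), the ZNF143 motif (1.92%, which are 5 promoters, and 0.372%), the YY1 motif (1.92% and 1.93%) and the E2F sequences TTTGGCGC (2.31% and 0.89%), TTTCCCGC (1.92% and 2.18%) and TTTCGCGC (0.769% and 0.814%). By the ratio of the shares the ZNF143 motif differed more than the ETS motif. None of these sequences contains the ETS motif or lies within it.

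The ETS matches gathered at the start site. Of 128 matches in the member promoters, 80 (62.5%) lay from 25 bases before the start to 25 bases after it, against 1039 of 2743 matches (37.9%) in promoters of protein-coding genes. Member promoters on chromosome 19 held the motif in 61 of 126 cases (48.4%) and those elsewhere in 55 of 134 (41.0%).

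**Figure D1:**
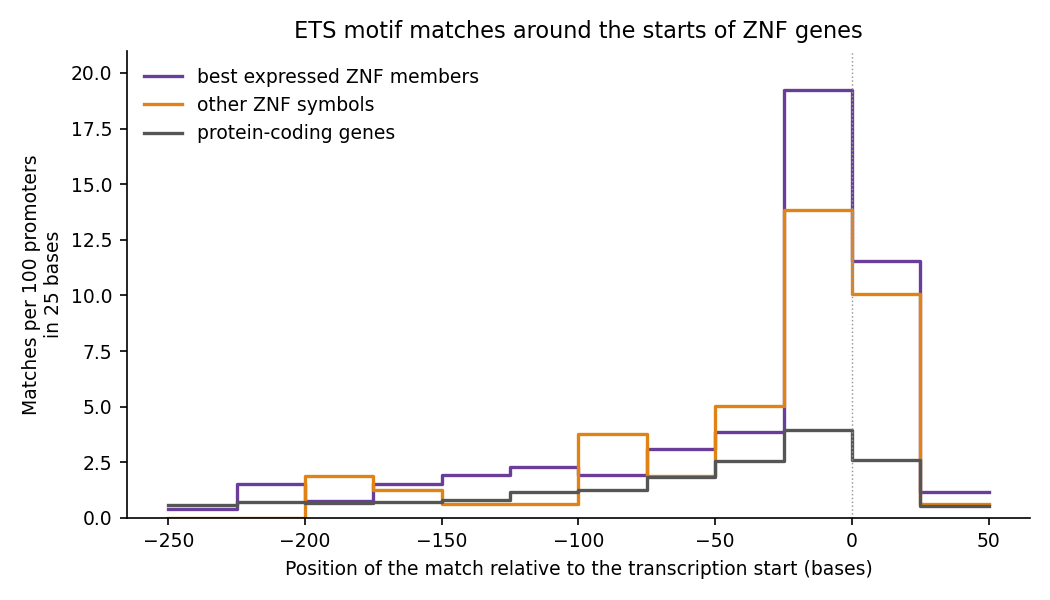
Matches to the ETS motif per 100 promoters (vertical axis) in bins of 25 bases along the window around the transcription start (horizontal axis, in bases), for the 260 promoters of ZNF members, those of the other ZNF symbols and those of protein-coding genes. The members reach 19.2 matches per 100 promoters in the 25 bases before the start, against 3.94 for protein-coding genes.

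The promoters of the genes on which the comparisons turn are printed with the motif in capitals, 5′ to 3′ along the gene. ZNF432, ZNF184 and ZNF367 were called in a comparison with DMSO, and ZNF302, ZNF85, ZNF141 and ZNF385B differed most between the lines. The capitals mark the ETS motif in either orientation (CCGGAAG or CTTCCGG), except in ZNF367, whose window held no ETS match and where they mark the E2F motifs TTTCGCGC and TTTCCCGC on the opposite strand. The window of ZNF385B held neither motif and has no capitals.
ZNF432, chr19:52048789-52049088, minus strand: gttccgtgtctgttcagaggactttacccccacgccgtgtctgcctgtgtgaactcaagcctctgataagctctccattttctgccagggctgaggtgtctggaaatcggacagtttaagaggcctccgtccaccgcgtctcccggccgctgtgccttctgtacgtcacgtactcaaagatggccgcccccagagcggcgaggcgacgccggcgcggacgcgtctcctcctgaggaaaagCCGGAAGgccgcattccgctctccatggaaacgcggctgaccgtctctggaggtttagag
ZNF184, chr6:27473056-27473355, minus strand: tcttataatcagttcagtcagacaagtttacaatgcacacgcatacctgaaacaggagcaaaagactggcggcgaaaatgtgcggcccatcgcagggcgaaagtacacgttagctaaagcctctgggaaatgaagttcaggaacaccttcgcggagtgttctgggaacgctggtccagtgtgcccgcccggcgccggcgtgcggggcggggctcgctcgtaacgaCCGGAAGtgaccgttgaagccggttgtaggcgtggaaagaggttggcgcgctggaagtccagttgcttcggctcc
ZNF367, chr9:96418321-96418620, minus strand: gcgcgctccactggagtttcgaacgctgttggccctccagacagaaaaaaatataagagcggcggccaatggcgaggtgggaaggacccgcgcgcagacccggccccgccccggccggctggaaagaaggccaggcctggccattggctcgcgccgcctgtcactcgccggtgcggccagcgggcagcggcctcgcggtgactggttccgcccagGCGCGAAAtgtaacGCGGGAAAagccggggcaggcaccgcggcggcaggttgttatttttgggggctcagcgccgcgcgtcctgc
ZNF302, chr19:34677428-34677727, plus strand: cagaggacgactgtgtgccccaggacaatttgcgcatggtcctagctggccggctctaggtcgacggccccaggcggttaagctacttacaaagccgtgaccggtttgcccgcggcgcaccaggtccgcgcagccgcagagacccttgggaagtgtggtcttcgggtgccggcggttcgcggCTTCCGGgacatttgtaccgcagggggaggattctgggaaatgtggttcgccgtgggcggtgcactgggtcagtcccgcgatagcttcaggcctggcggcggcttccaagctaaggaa
ZNF85, chr19:20923001-20923300, plus strand: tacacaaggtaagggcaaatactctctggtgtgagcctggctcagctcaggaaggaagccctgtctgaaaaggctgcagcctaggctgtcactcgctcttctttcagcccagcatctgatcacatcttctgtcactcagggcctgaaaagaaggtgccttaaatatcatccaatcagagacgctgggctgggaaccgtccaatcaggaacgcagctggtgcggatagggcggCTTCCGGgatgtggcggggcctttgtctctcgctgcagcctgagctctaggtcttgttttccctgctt
ZNF141, chr4:337564-337863, plus strand: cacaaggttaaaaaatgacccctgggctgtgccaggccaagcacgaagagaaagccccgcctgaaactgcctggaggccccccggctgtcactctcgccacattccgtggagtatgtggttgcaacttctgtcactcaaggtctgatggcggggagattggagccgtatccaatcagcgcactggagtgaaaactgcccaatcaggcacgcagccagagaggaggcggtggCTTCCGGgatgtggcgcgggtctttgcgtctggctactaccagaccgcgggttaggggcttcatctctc
ZNF385B, chr2:179861563-179861862, minus strand: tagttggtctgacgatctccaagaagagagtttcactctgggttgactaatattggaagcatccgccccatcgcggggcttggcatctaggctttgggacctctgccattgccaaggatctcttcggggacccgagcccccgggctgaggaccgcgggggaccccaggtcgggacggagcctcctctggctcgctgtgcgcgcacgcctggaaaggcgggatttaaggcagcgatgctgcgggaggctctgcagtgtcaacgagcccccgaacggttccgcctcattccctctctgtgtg
In these windows the ETS match of ZNF85 and of ZNF141 begins the same stretch, CTTCCGGgatgtggcg, and both genes carry CCAAT boxes upstream of it. A match is a description of these letters and not evidence of binding.

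The largest differences among the ZNF members were those between the lines. Since the DMSO arrays had chosen the members, the lines were compared on the treated arrays alone, with the 3 treated arrays of each line and replicate number averaged, 3 profiles against 3. At an adjusted p under 0.05 and a fold change over 2, 29 of the 300 members were called (9.67%), against 7.07% of all rows. 9 members were higher in SU-DHL-4 (2.85% of all rows were called in this direction and 4.53% of the rows at or above the level of the last member) and 20 were lower (4.22% and 5.72%). Among the rows at or above that level 10.3% were called in either direction, so that the members' share was close to that of other genes of their level. In all 29 genes the difference in DMSO had the same sign. This is a description only, since the DMSO arrays had chosen the members. Without the fold change minimum 143 members passed (47.7%), 41 higher and 102 lower, against 27.5% of all rows and 44.4% of rows at the members' level.

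The rule itself let in genes that are high in 1 line and low in the other. It set its limit of 5.56 on the mean over both lines, and 35 members had a DMSO mean under this limit in 1 line. They were members through the other line alone, so that a difference between the lines was built into their choice, and 14 of the 29 called members were among them, namely ZNF385B, ZNF141, ZNF718, ZNF844, ZNF426, ZNF256, ZNF518B, ZNF544, ZNF26 and ZNF268 (low in SU-DHL-4) and ZNF302, ZNF85, ZNF860 and ZNF415 (low in DG-75). Their differences are given as a description, without p-values. Of the 265 members at or above the limit in both lines, 15 were called (5.66%), 5 higher and 10 lower, against 7.41% of the 10357 rows that met the same limit in both lines. Without the fold change minimum 119 of these 265 passed (44.9%), against 42.4% of those rows. The other 24 of the 143 members that passed lay under the limit in 1 line.

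ZNF385B, described in germinal centre B cells with a role in B-cell apoptosis, was the member with the widest gap. It had entered by its DMSO mean of 9.67 in DG-75, against 2.49 in SU-DHL-4. Its treated arrays ran from 2.17 over a median of 2.35 to 2.86 in SU-DHL-4 and from 9.19 over 9.43 to 10.08 in DG-75. No array of one line came near the other, and the difference was −7.00 (log2, SU-DHL-4 minus DG-75, SE 0.0967). In DMSO the difference was −7.18. Whether the low values of ZNF385B and of the other members that lie low in 1 line stand above background is not known, so no fold is given for them.

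ZNF141, a KRAB zinc finger gene near the end of the short arm of chromosome 4, lay between 3.09 and 4.58 (median 3.83) in SU-DHL-4 and between 7.09 and 8.06 (median 7.60) in DG-75. The groups were separate, with a difference of −3.76 (SE 0.107). ZNF718, also on chromosome 4, differed by −2.43 (SE 0.104). RefSeq places several uncharacterized loci over ZNF718, whose signal cannot be separated from it here.

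ZNF844, ZNF426, ZNF256 and ZNF562, all on chromosome 19, were lower in SU-DHL-4 as well. ZNF844 ranged from 4.68 to 5.97 in SU-DHL-4 and from 7.37 to 7.91 in DG-75 (−2.27, SE 0.110). The differences of ZNF426, ZNF256 and ZNF562 were −1.80, −1.69 and −1.23, and ZNF518B on chromosome 4 differed by −1.90. In none of these did an array of SU-DHL-4 reach one of DG-75.

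ZNF302 was the member furthest in the other direction. It had entered by its DMSO mean of 7.06 in SU-DHL-4, against 4.12 in DG-75. Its treated arrays lay from 6.15 over a median of 6.79 to 7.50 in SU-DHL-4 and from 2.72 over 3.32 to 4.31 in DG-75. The lines were separate, and the difference was 3.47 (SE 0.159). The annotation of SCGB2B2 overlaps ZNF302.

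ZNF85, a KRAB zinc finger gene of the cluster on the short arm of chromosome 19, lay between 7.61 and 8.33 (median 7.93) in SU-DHL-4 and between 4.15 and 5.36 (median 4.77) in DG-75. The difference was 3.16 (SE 0.103). ZNF318, needed in B cells for the alternative splicing that yields IgD beside IgM, lay between 8.79 and 9.18 in SU-DHL-4 and between 6.80 and 7.57 in DG-75 (1.90, SE 0.0982, adjusted p = 2.81e-07). ZNF860 and ZNF608 were 2.16 and 1.79 higher in SU-DHL-4 without overlap, and ZNF860 lies within the annotation of OSBPL10. The other called members named here overlapped between the lines, ZNF70 with a difference of 1.76, ZNF486 with 1.58 and ZNF415 with 1.16. Of the 29 called members ZNF70 varied most between the SU-DHL-4 profiles (SD 0.797, n = 3), and its arrays ran from 6.07 to 8.70.

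**Figure D2:**
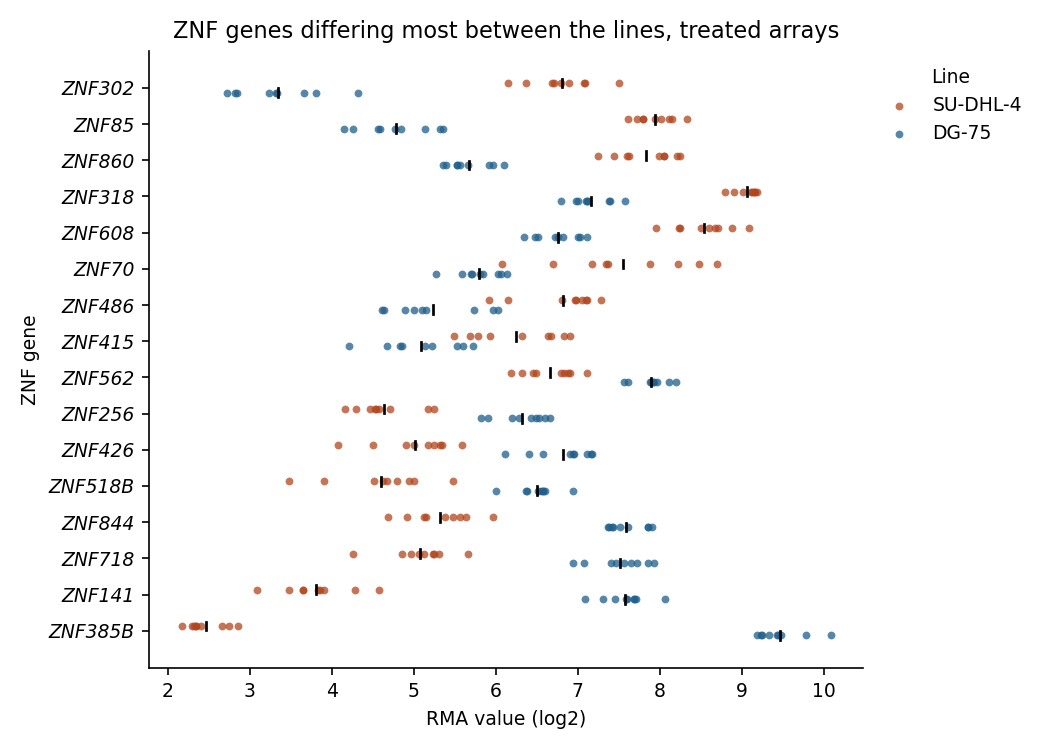
RMA values (log2, horizontal axis) of the 9 treated arrays of SU-DHL-4 and the 9 of DG-75 for the 8 members called higher and the 8 called lower in SU-DHL-4 with the widest differences (vertical axis). Points are arrays and black marks are means over the 9 arrays. ZNF385B lies below 2.9 on every treated SU-DHL-4 array and above 9.1 on every treated DG-75 array, and ZNF302 shows the widest gap in the other direction.

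Across all members the balance leaned towards DG-75. 201 of 300 were lower in SU-DHL-4, with a median difference of −0.12, against a median of −0.01 over all rows and −0.07 over rows at or above the members' level. The 9 treated arrays of each line did not overlap in 53 members (17.7%), against 11% of all rows and 19.5% of rows at the level of the members. Of these 53, 39 lay below in SU-DHL-4 (6.58% of all rows) and 14 above (4.41% of all rows). These 53 include 14 of the 35 members under the limit of the rule in 1 line. Of the 265 members at or above the limit in both lines, 39 did not overlap (14.7%, 28 below and 11 above in SU-DHL-4), against 17.2% of the rows that met the limit in both lines.

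Neighbours in the genome often differed in the same direction. Of 143 pairs of neighbouring members, 103 (72.0%) had the same sign, against 55.9% of all possible pairs of protein-coding members. The difference of one neighbour correlated with that of the other with r = 0.30, a description over pairs that share genes and probes of similar sequence. Where both neighbours differed by more than 0.5, 21 of 23 pairs had the same sign. With the members under the limit in 1 line left out, 78 of 110 neighbouring pairs had the same sign (70.9%, against 56.8% of all possible pairs), r was 0.36, and 11 of 12 pairs with both differences over 0.5 did.

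Some clusters leaned one way. They are described here by their members at or above the limit of 5.56 in both lines, since the others were chosen through 1 line. On chromosome 19 all 4 such members from ZNF266 to ZNF562 were lower in SU-DHL-4 (median −0.69), with ZNF562 called. All 9 from ZNF627 to ZNF44 were lower as well (median −0.47), as were 11 of 12 from ZNF550 to ZNF606 (median −0.44), with none called in either, against 7.41% of all rows that met the limit in both lines. On chromosome 12 ZNF26, ZNF84, ZNF140 and ZNF268 lie together and were lower in SU-DHL-4, but 3 of the 4 were members through DG-75 alone, which leaves ZNF84 (−1.14, called). In contrast, the 7 members from ZNF786 to ZNF746 on chromosome 7 were all higher in SU-DHL-4, with none called, a median of 0.22 and a median of 0.58 over 5 other genes there. The median of 3 other genes was 0.32 around ZNF266 to ZNF562 and that of 3 was −0.21 around ZNF627 to ZNF44. It was −0.25 over 4 other genes around the chromosome 12 cluster, and ZNF550 to ZNF606 had 0 such genes. These clusters were picked for the text after their values were seen.

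The cluster with the most members was mixed. Of the 21 members from ZNF101 to ZNF98 on chromosome 19, which include ZNF85, 13 were lower and 8 higher in SU-DHL-4, with ZNF101 called lower and ZNF486 and ZNF85 called higher, the last of them a member through SU-DHL-4 alone. Of the 19 at or above the limit in both lines, 13 were lower and 6 higher, with ZNF101 and ZNF486 called. Genes of such clusters resemble each other in sequence, and cross-hybridization between them was not tested.

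**Figure D3:**
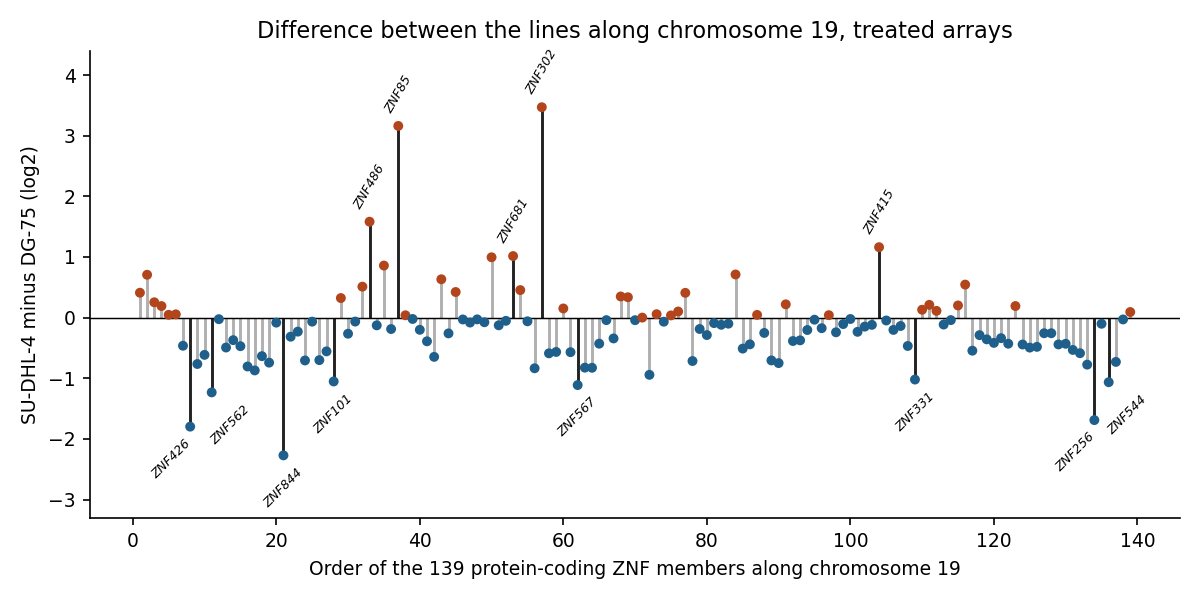
Difference between the lines (SU-DHL-4 minus DG-75, log2, treated arrays, vertical axis) for the 139 protein-coding ZNF members of chromosome 19 in their order along it (horizontal axis). Red points are higher and blue points lower in SU-DHL-4, and the 13 called members have black stems and names. Long stretches of blue points stand on both sides of a mixed stretch with ZNF85 and ZNF302 as the highest points.

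Ento alone called no ZNF member in either line. The rates over all rows were 0.0508% in the SU-DHL-4 line and 0.00391% in DG-75, and 23 and 1 members had an unadjusted p under 0.05 (8.59% and 2.81% of all rows). The members with the smallest p in SU-DHL-4 were ZNF860 with a change of 0.74 (adjusted p = 0.242) and ZNF106 with 0.63 (adjusted p = 0.303). The median change over the members was −0.08 in the SU-DHL-4 line and −0.01 in DG-75, against −0.06 and 0.00 over all rows. These medians turned above 0 without single arrays, at the most 0.02 in the SU-DHL-4 line (without Ento replicate 2) and 0.11 in DG-75 (without Ento replicate 3).

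AZD alone called 1 member in SU-DHL-4, ZNF432, where 0.18% of all rows were called. ZNF432 is a KRAB zinc finger gene of chromosome 19. Its values in SU-DHL-4 were 6.09, 5.95 and 5.95 in DMSO, 5.83, 5.40 and 5.79 under Ento, 4.68, 4.68 and 4.99 under AZD and 5.11, 4.60 and 5.09 under Ento+AZD. All 6 arrays with AZD lay below all 6 without it. ZNF432 was above the limit of the rule in DMSO in both lines, but not among the 300 when the treated arrays were ranked. The change under AZD was −1.21 (SE 0.154, adjusted p = 0.0312). With array medians subtracted it was −1.09 and missed the threshold (adjusted p = 0.0584), and leaving out single arrays of SU-DHL-4 moved the adjusted p between 0.0115 and 0.196. The call was lost in 6 of 12 such fits, without DMSO replicate 1 (adjusted p = 0.0905), 2 (0.108) or 3 (0.196), AZD replicate 1 (0.0699) or 3 (0.138) or Ento+AZD replicate 1 (0.052).

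In DG-75 ZNF432 was 5.79, 5.58 and 6.03 in DMSO and 5.31, 5.50 and 5.85 under AZD. These groups overlapped, and the change of −0.25 did not pass (adjusted p = 0.603). The difference between the lines in the AZD response was −0.97 (SE 0.230, adjusted p = 0.285).

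No member was called under AZD in DG-75, where 0.18% of all rows were called and 30 members had an unadjusted p under 0.05 (13.8% of all rows). The smallest p was that of ZNF302, which lies low in this line. It was 4.69, 3.88 and 3.78 in DMSO and 3.32, 2.82 and 2.72 under AZD, a change of −1.16 (SE 0.244, adjusted p = 0.0693) between groups that did not overlap. In 1 fit of all 24 arrays its adjusted p was 0.0359. With single arrays of DG-75 left out it ranged from 0.0318 (without Ento+AZD replicate 3) to 0.407, and 11 of 12 such fits did not pass.

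Ento+AZD called 2 members in SU-DHL-4, ZNF432 and ZNF184, where 1.19% of all rows were called. ZNF432 changed by −1.06 (SE 0.154, adjusted p = 0.00597). ZNF184, a KRAB zinc finger gene in the histone gene region of chromosome 6, was 8.07, 7.95 and 8.32 in DMSO, 8.04, 7.09 and 7.73 under Ento, 7.41, 7.31 and 7.25 under AZD and 7.27, 6.86 and 7.03 under Ento+AZD. The combination arrays lay below all DMSO arrays, and the change was −1.06 (SE 0.18, adjusted p = 0.012). Both calls were lost by the fold change minimum when array medians were subtracted (−0.93 each), and the call of ZNF184 was lost without the replicate block (adjusted p = 0.0624). The calls also rested on single arrays. Leaving out 1 array of SU-DHL-4 ended the call of ZNF432 in 2 of 12 fits, without replicate 2 of DMSO (−0.96, adjusted p = 0.0565) or of Ento+AZD (−0.96, adjusted p = 0.0507). That of ZNF184 ended in 4, without DMSO replicate 2 (adjusted p = 0.0876) or 3 (0.0672) or Ento+AZD replicate 2 (0.0601) or 3 (0.0615).

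In DG-75 Ento+AZD called ZNF367, where 0.833% of all rows were called. ZNF367 is known as a gene expressed at the start of DNA replication. It was 5.93, 6.15 and 5.70 in DMSO, 5.89, 5.79 and 5.43 under Ento, 4.56, 5.17 and 5.40 under AZD and 4.46, 4.92 and 5.07 under Ento+AZD. Every array with AZD lay below every array without it. The rule used the DMSO arrays, the controls of this comparison, and ZNF367 lay under its limit in SU-DHL-4 (DMSO mean 5.46) and above it in DG-75 (5.92). It was a member through the DMSO arrays of DG-75, a choice that favours a decrease from DMSO, and it was not among the 300 when the treated arrays were ranked. The change under the combination was −1.10 (SE 0.224, adjusted p = 0.0326). Against Ento, which the rule did not use, the combination differed by −0.88 in DG-75 (adjusted p = 0.0796). The call against DMSO was lost in 6 of 12 fits that each left out 1 array, namely DMSO replicate 1 (adjusted p = 0.223), 2 (0.0999) or 3 (0.0619), Ento replicate 2 (0.054) or Ento+AZD replicate 1 (0.199) or 2 (0.0995). ZNF519 and ZNF689 passed the adjusted p there at less than a 2-fold change (2.39% of all rows passed without that minimum), with −0.64 (adjusted p = 0.0327) and −0.83 (adjusted p = 0.0409). Both rested on single arrays, since they passed in 4 and 3 of the 12 fits that left out 1 array, with adjusted p-values up to 0.228 and 0.255.

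In SU-DHL-4 ZNF367 was 5.41, 5.34 and 5.62 in DMSO, 5.39, 4.96 and 5.42 under Ento, 4.64, 4.94 and 4.93 under AZD and 4.33, 4.57 and 4.69 under Ento+AZD. The same order of groups appeared as in DG-75, and the change under the combination was −0.93 (SE 0.16, adjusted p = 0.0121), just short of 2-fold. ZNF280C changed by 0.83 in this comparison (adjusted p = 0.0454) and ZNF449, a SCAN domain gene, by −0.95 (adjusted p = 0.0482). With ZNF432 and ZNF184, 5 members passed the adjusted p here without the fold change minimum (1.67%), against 2.36% of all rows and 4.42% at the members' level. With single arrays left out their number ranged from 0 (without replicate 2 of DMSO or of Ento+AZD) to 8. ZNF367 passed in 7 of 12 such fits (adjusted p up to 0.0726), ZNF280C in 4 (up to 0.214) and ZNF449 in 2 (up to 0.222).

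**Figure D4:**
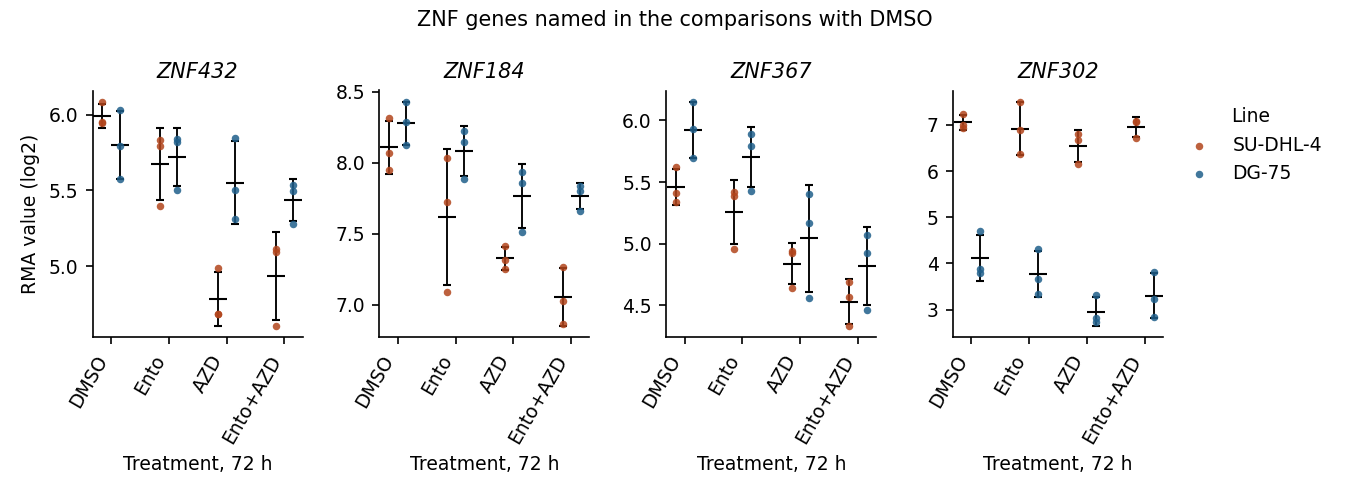
RMA values (log2, vertical axes) of ZNF432, ZNF184, ZNF367 and ZNF302 in the 4 treatments (horizontal axes) of SU-DHL-4 and DG-75. Points are the 3 replicates, and the black marks and bars are means and SD. ZNF367 steps down from DMSO to Ento+AZD in both lines, while ZNF432 under AZD lies below DMSO on all SU-DHL-4 arrays and overlaps with it in DG-75.

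The combination was also set against each single agent. No member was called against Ento in the SU-DHL-4 line (0.0821% of all rows) or in DG-75 (0.657% of all rows), with 24 and 33 members at an unadjusted p under 0.05 (8% and 11%, against 9.67% and 14.8% of all rows). ZNF791 passed the adjusted p against Ento in DG-75 at less than 2-fold (0.74, adjusted p = 0.0458), where 1.66% of all rows passed without the fold change minimum. It passed in none of the 12 fits that left out 1 array (adjusted p from 0.0511 to 0.240). No member was called against AZD, in SU-DHL-4 with 0.0274% of all rows called and in DG-75 with 0, and 18 and 5 members had an unadjusted p under 0.05 (6% and 1.67%, against 7.03% and 4.03% of all rows). The smallest adjusted p against AZD was 0.524 in SU-DHL-4, that of ZNF280C with a difference of 0.68.

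No member was called for a difference between the lines in the response to Ento (0.00782% of all rows), AZD (0 rows) or Ento+AZD (0.0352%). Unadjusted p-values under 0.05 were held by 9, 14 and 18 members, which are 3%, 4.67% and 6%, against 4.43%, 6.16% and 6.51% of all rows.

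A fit of both lines together, with line as an additive term as in the study's methods, was added after the data were seen. It called no member under Ento (0.00782% of all rows) or AZD (0.254%) and 1 under Ento+AZD (0.856%), ZNF367 with −1.02 (SE 0.135, adjusted p = 7.49e-05). Leaving out Ento+AZD replicate 1 of SU-DHL-4, DMSO replicate 1 or 2 of DG-75 or Ento+AZD replicate 1 or 2 of DG-75 brought it just under 2-fold, at the least −0.96, with adjusted p-values up to 0.000475. After quantile normalization, and with array medians subtracted, it was −0.91 and also under 2-fold. Without the fold change minimum, 20 members passed under AZD, all lower, which are 6.67% against 4.66% of all rows and 9.48% of rows at the members' level. The count ranged from 7 (without AZD replicate 1 of DG-75) to 34 with single arrays left out. The rule used the DMSO arrays that are the controls here, and 4 of the 20, ZNF367, ZNF175, ZNF302 and ZNF544, lay under its limit in 1 line, a choice that favours a decrease from DMSO. Without such members 16 of 265 passed (6.04%), against 9.43% of the rows that met the limit in both lines. The 20 included ZNF367 (−0.75), ZNF184 (−0.65), ZNF175 (−0.56) and ZNF432 (−0.73). They also held ZNF644 (−0.44), a partner of the histone methyltransferases G9a and GLP, ZNF217 (−0.33), a partner of the LSD1-CoREST complex, and ZNF318 (−0.39). ZNF184, ZNF175, ZNF432, ZNF367 and ZNF644 passed in all 24 fits that left out 1 array, ZNF217 in 18 and ZNF318 in 16. Under Ento+AZD 23 passed, 18 lower and 5 higher, which are 7.67% against 8.49% of all rows and 16.5% at the members' level. With single arrays left out 12 (without replicate 1 of DMSO or of Ento+AZD in DG-75) to 26 passed, and 3 of the 23, ZNF367, ZNF175 and ZNF554, lay under the limit in 1 line. ZNF689 (−0.62), ZNF706 (−0.40) and ZNF740 (0.37) were among them. Against Ento, the combination called no member (0.387% of all rows) and 7 passed without the fold change minimum, all lower (2.33%, against 4.62% of all rows and 9.53% at the members' level), among them ZNF367 (−0.81, past the adjusted p in all 24 fits that left out 1 array) and ZNF286A (−0.65, in 16 of them). Their number ranged from 3 to 13 over these fits and was lowest without Ento+AZD replicate 2 of SU-DHL-4, Ento replicate 1 or 2 of DG-75 or Ento+AZD replicate 1 of DG-75. The comparisons with DMSO share their DMSO arrays.

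The ZNF members as a whole lay slightly below DMSO under AZD. In SU-DHL-4 267 of 300 changes were below 0 (89.0%), with a median of −0.23, against 63.9% and −0.08 over all rows and 72.2% and −0.12 over rows at the members' level. By replicate the member medians were −0.40, −0.08 and −0.22, and replicate 1 is the array with the lowest median of all 24. Without that array the member median was −0.08, against −0.04 over all rows. In DG-75 218 members were below 0, with a median of −0.12, against −0.06 over all rows and −0.12 at the members' level. The scaling moved these medians. With array medians subtracted the member medians were −0.11 in the SU-DHL-4 line and −0.06 in DG-75, against 0.04 and 0.00 over all rows. After quantile normalization they were −0.09 and 0.01, against 0.02 and 0.02 over all rows. The median of all rows under AZD in SU-DHL-4 moved by 0.119 with the first of these scalings. Members near the limit of the rule were chosen on the same DMSO arrays, a choice that favours differences below 0.

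Under Ento+AZD 232 members were below 0 in the SU-DHL-4 line (median −0.14) and 187 in DG-75 (median −0.08), against medians of −0.08 and −0.07 over all rows. With array medians subtracted the member medians became −0.01 and 0.01, and those of all rows became 0.05 and 0.02. Against AZD, a comparison free of the DMSO arrays, the combination had 209 members above 0 in the SU-DHL-4 line (median 0.11) and 202 in DG-75 (median 0.05), against −0.01 and 0.00 over all rows. By replicate the SU-DHL-4 medians were 0.38, −0.12 and 0.05, the first again resting on the AZD array of replicate 1. The direction turned with single arrays. Without that array the SU-DHL-4 median was −0.04, with 122 members above 0, and in DG-75 the median was −0.02 without AZD replicate 1 and −0.01 without Ento+AZD replicate 3.

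**Figure D5:**
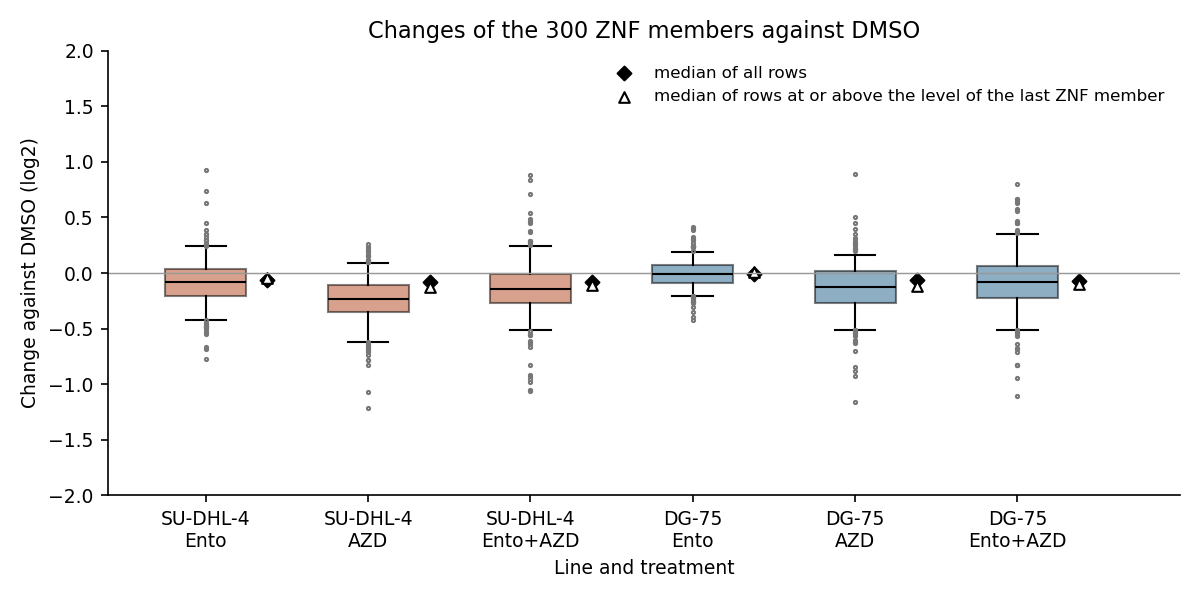
Changes against DMSO (log2, vertical axis) of the 300 ZNF members by line and treatment (horizontal axis). Boxes span the quartiles of the members with the median as a line, whiskers reach the 5th and 95th percentile, and dots are members beyond. Diamonds are medians of all rows and triangles those of rows at the members' level, and the box of SU-DHL-4 under AZD lies furthest below both.

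Counted by same-numbered pairs of arrays, 47 members (15.7%) were lower under AZD in all 6 pairs of both lines, against 10.1% of all rows and 18.4% of rows at the members' level. 2 members were higher in all 6 pairs, ZNF740 and ZNF655, against 1.65% of all rows. Under Ento+AZD 44 members (14.7%) were lower in all 6 pairs, against 11.8% of all rows and 20.8% at the members' level, and 9 were higher (3.08% of all rows). Read against genes of their own level, the members' shares were not raised.

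By known role, 12 members belonged to transposon and imprint repression, and none of them was called in a treatment comparison. ZNF141 had changes of −0.69 under Ento (adjusted p = 0.520) and −0.92 under Ento+AZD (adjusted p = 0.103) in the SU-DHL-4 line, and of 0.00 under each in DG-75, where the differences in the response were −0.69 and −0.92 (adjusted p = 0.9995 and 0.657). Between the lines 3 of the 12 were called, where 7.07% of all rows and 10.3% of rows at the members' level were, with ZNF85 higher in SU-DHL-4 and ZNF141 and ZNF268 lower. All 3 lay under the limit of the rule in 1 line. Such counts over short lists are descriptions, for the lists that follow as well. ZNF91, which silences SVA elements, lay between 7.21 and 8.50 on all 24 arrays, and ZNF93, which silences LINE-1 elements, between 6.69 and 7.49. Their differences between the lines were −0.13 (adjusted p = 0.497) and −0.06 (adjusted p = 0.670). ZNF417, which represses HERV-K, was lower in SU-DHL-4 by less than 2-fold (−0.59), and ZNF445, a regulator of imprinting, was higher (0.57), both past the adjusted p.

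The partners of chromatin complexes held 14 members, with none called in a treatment comparison and 1 between the lines, ZNF318. Between the lines 7.07% of all rows and 10.3% of rows at the members' level were called. Under AZD 13 of 14 were below 0 in the SU-DHL-4 line (median −0.26) and 10 in DG-75 (median −0.11), close to the 89.0% and 72.7% of all 300 members with their medians of −0.23 and −0.12. ZNF644 and ZNF217 in the fit of both lines are given above. ZNF407 was lower in SU-DHL-4 by −0.94, short of 2-fold.

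The 12 members with SCAN domains, a dimerization domain of some ZNF proteins, had 1 call between the lines, ZNF449 lower in SU-DHL-4 (−1.16), and none in a treatment comparison. The shares called between the lines were 7.07% of all rows and 10.3% of rows at the members' level. Among the 8 promoter-binding factors no member was called. ZNF143, an activator at many promoters, lay between 8.14 and 8.76 on all arrays and differed by −0.07 between the lines (adjusted p = 0.597). ZNF148 differed by −0.61, past the adjusted p but under 2-fold.

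The 12 members that act on RNA, ribosomes or the spindle had no call. All 12 were below 0 under AZD in SU-DHL-4 (median −0.16) and 11 of 12 in DG-75 (median −0.19), where the median of rows at the members' level was −0.12 in both and the medians of all 300 members were −0.23 and −0.12. ZNF207 lay between 10.54 and 10.87 on all 24 arrays, with a change of −0.07 under AZD over both lines (adjusted p = 0.703).

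Of 20 genes of the TRIM28 corepressor, through which KRAB proteins silence, 19 were below 0 under AZD in the fit of both lines, with 5 past the adjusted p and none called. Over all rows 64.9% were below 0 and 4.66% passed the adjusted p, and at the members' level 73.2% and 9.48%. UHRF1, which guides maintenance DNA methylation, was the 1 gene of this list called in a treatment comparison within a line, with −1.13 under Ento+AZD in SU-DHL-4 (adjusted p = 0.0226), where 1.19% of all rows were called. It was called in 8 of the 12 fits that left out 1 array, with an adjusted p up to 0.135. TRIM28 itself differed by −0.06 and −0.13 under AZD in SU-DHL-4 and DG-75 (adjusted p = 0.931 and 0.725) and was lower in the SU-DHL-4 line by less than 2-fold (−0.82, adjusted p = 0.00103).

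Members with and without the ETS motif were compared by their medians, without a test. The 116 members with it had a median change of −0.16 under AZD over both lines, and the 144 without it −0.20. Between the lines their medians were −0.11 and −0.17, with 11 and 15 members called. The 9 promoters of members called higher in SU-DHL-4 had a median of 17 CG dinucleotides, the 17 of those called lower had 19 and the 234 of the rest had 22. Of the 29 members called between the lines, 14 lay under the limit of the rule in the line where they are low. They were members through the other line alone, so the called groups partly reflect the rule. The CG medians were not computed without them, and a link between CG content and the line differences was not tested.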

How the data were processed

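RNA of SU-DHL-4 and DG-75 cells was measured on 24 Clariom D arrays. The authors deposited 1 table of log2 values, which their methods describe as normalized by RMA (robust multi-array average) in limma, with probes mapped to genes by affycoretools and the Clariom transcript cluster annotation. Versions and genome build are not given in the sources used here. No detection value per gene was used, so low values cannot be split into expressed and not expressed, and the number of arrays limits the precision. All per-sample columns were matched to samples.

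Groups and replicate numbers followed the labels. limma 3.58.1 under R 4.3.3 fitted each line (lmFit, contrasts.fit, eBayes) on all 25575 rows, with treatment and, as the batch of the study's methods, the replicate number. What the batch was is not given in the sources used here. P-values were adjusted by Benjamini-Hochberg over all rows, and calls needed an adjusted p under 0.05 and a fold change over 2. The lines were compared on averaged treated arrays, and their responses in 1 fit of 24 arrays. The code was tested on simulated data. Named genes were called members (up to 6 per direction, 8 between the lines), otherwise those with the 4 smallest p, list members and members at the rule's limits. The members, lists and tests were chosen with earlier results of these data known. Alternatives were other scalings, filters, prior variances, member limits, no block and each array left out. Proteins were not analysed here, and 1 B-cell marker of the lists is not reported here, so that the range of the others is not that of the whole list.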

Additional observations from a re-analysis of the deposited data

Results flagged for a closer look

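In each of the 4 cases listed here all 3 same-numbered differences of one line went up and all 3 of the other went down. The list is not a count, and the share of such cases over all rows is not given. Under Ento, ZNF85 changed by −0.35 in the SU-DHL-4 line and 0.40 in DG-75, a difference in the response of −0.75 (adjusted p = 0.9995 in the fit of 24 arrays). ZNF789 changed under Ento by 0.39 in the SU-DHL-4 line and −0.14 in DG-75, a difference of 0.54 (adjusted p = 0.9995). ZNF394, a SCAN domain gene, changed under AZD by −0.22 in the SU-DHL-4 line and 0.35 in DG-75, a difference of −0.56 (adjusted p = 0.521). Under Ento+AZD ZNF394 changed by −0.12 and 0.58, a difference of −0.70 (adjusted p = 0.206). None of these differences passed the test, and both ZNF394 values use the same DMSO arrays. Groups of 3 arrays were not searched for single outlying arrays.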

How the results depend on the processing

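Over the 19 comparisons, 401 of 451 recomputed counts stayed within 1.5 times their value and 50 moved, and of 1876 recomputed changes of named genes none turned its direction, while 33 lost and 21 gained the call. The 29 calls between the lines became 143 without the fold change minimum and 13 with 200 members, and they ranged from 27 to 29 with single replicates left out. For AZD in SU-DHL-4 the 1 call became 0 after quantile normalization, with array medians subtracted, with members ranked on treated arrays and with 200 members. For Ento+AZD in SU-DHL-4 the 2 calls became 1 without the replicate block, with the treated-array ranking and with 200 members, 0 under both scalings and 5 without the fold change minimum. For AZD in DG-75, 0 calls became 1 (ZNF302) in 1 fit of all 24 arrays, with rows under the median left out and with a trended robust prior. For Ento+AZD in DG-75 the 1 call became 0 with array medians subtracted, with the treated-array ranking and with 200 members, and 3 without the fold change minimum. In DG-75 the combination against Ento went from 0 calls to 1 without that minimum. Over both lines it raised the counts to 20 (AZD), 23 (Ento+AZD) and 7 (Ento+AZD against Ento), and both scalings took the 1 call of Ento+AZD to 0. Leaving out single replicates gave 0 to 2 calls for AZD and 0 to 3 for Ento+AZD in SU-DHL-4, in DG-75 0 to 1 for AZD, 0 to 2 for Ento+AZD and 0 to 1 for the combination against Ento, and 0 to 1 for Ento+AZD over both lines. Other causes of these moves were not tested. Same-numbered arrays did not all deviate together. The correlations of their deviations were −0.11 to 0.39 in SU-DHL-4 (median 0.15) and −0.35 to 0.34 in DG-75 (median 0.04), so the arrays share a number rather than a shown pairing, and the block, kept from the study's methods, moved no other count of calls by over 1.5 times. The precision is limited by 3 arrays a group and by unknown background.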
